A study of Homo sapiens with 3 samples.

Results

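The miR-183, miR-96 and miR-182 cluster comprises 3 microRNA precursors that are transcribed together from chromosome 7. It was examined in small RNA sequencing data of 3 cancer-derived cell lines. The members were 5 of the 2588 mature miRNAs in the deposited tables, chosen by name: hsa-miR-183-5p, hsa-miR-183-3p, hsa-miR-96-5p, hsa-miR-182-5p and hsa-miR-182-3p (written below without the species prefix). The remaining arm, miR-96-3p, was also in the tables and is given beside them. C643 is a line of anaplastic thyroid cancer, ES-2 one of ovarian cancer and Huh-7 one of liver cancer (hepatocellular carcinoma). All 3 were parental cells grown in DMEM with serum and harvested 48 h after seeding, and each gave 1 small RNA library. The study as a whole concerned decoys of miR-21-5p. No line had a replicate, so all intervals cover counting error only and no difference could be set against biological spread.

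Each hairpin precursor can yield a mature miRNA from its 5p arm and another from its 3p arm. As a rule 1 arm is loaded into Argonaute as the guide and the other is degraded. The guide finds target mRNAs mainly through its seed, bases 2 to 8, so members with different seeds bind different sets of targets. The miR-183 cluster is conserved among animals and best known from sensory organs, where it is abundant in hair cells of the inner ear and in photoreceptors, and changes in the miR-96 seed cause hearing loss. In carcinomas its members are often abundant, and the transcription factor FOXO1 is a well-known target of them.

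The precursors lie on the minus strand of chromosome 7 (GRCh38), at 129774905 to 129775014 for MIR183, 129774692 to 129774769 for MIR96 and 129770383 to 129770492 for MIR182. MIR183 is thus the first to be transcribed. MIR96 follows after 135 bases, and MIR182 after a further 4199. None of them overlaps another gene of GENCODE version 29, so they are intergenic and not part of an annotated exon or intron. The nearest gene upstream is the lincRNA AC084864.1, on the same strand and 8356 bases from MIR183. The nearest protein-coding genes are NRF1, which ends 13301 bases from MIR182, and UBE2H, 55718 bases from MIR183.

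**Figure D1:**
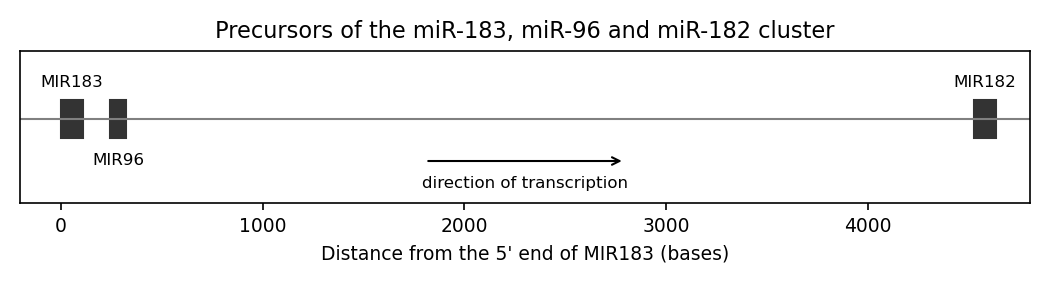
Map of the cluster, drawn to scale in the direction of transcription, with the distance from the 5′ end of MIR183 in bases on the horizontal axis. Boxes mark the 3 precursors; MIR96 starts 245 bases and MIR182 4522 bases after MIR183.

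The mature sequences are shown because the members differ in the seed. They are taken from RefSeq (GRCh38.p14), which matched 5 of 5 members, and run 5′ to 3′ with the seed in capitals.
miR-183-5p: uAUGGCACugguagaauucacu
miR-96-5p: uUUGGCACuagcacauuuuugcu
miR-182-5p: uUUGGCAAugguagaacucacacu
miR-183-3p: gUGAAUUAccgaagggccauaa
miR-182-3p: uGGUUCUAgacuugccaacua
miR-96-3p: aAUCAUGUgcagugccaauaug

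The seeds of the 5p members resembled each other, and none was identical to another. Counted from the 5′ end of the mature miRNA, the change from miR-183-5p to miR-96-5p within the seed was A2U and that from miR-182-5p to miR-96-5p was A8C. From miR-183-5p to miR-182-5p both A2U and C8A were found. Over the whole miRNA, aligned at the 5′ end, the order was a different one: miR-183-5p and miR-182-5p were identical at 18 of 22 bases, whereas miR-183-5p and miR-96-5p shared 13 of 22 and miR-182-5p and miR-96-5p 12 of 23. By bases 2 to 7 alone, miR-96-5p and miR-182-5p had the same seed, and miR-183-5p stood alone.

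The first question was how much of the miRNA pool of each line the cluster made up. The deposited values, named CPM, are reads multiplied by 1 factor per library, and 100% of the values above 0 were whole multiples of the smallest value of their column. Dividing by it gave 1663181 reads in ES-2, 2173587 in Huh-7 and 8183100 in C643. The share of a miRNA is its reads divided by this total, summed over loci, with a 95% Wilson confidence interval (CI). The hepatocyte miRNA miR-122-5p held 13.3% in Huh-7, against 0.00572% in C643 and 0.000361% in ES-2. Of 4 blood cell miRNAs, miR-142-3p had 542 reads and miR-451a 1 read in ES-2, and miR-144-3p and miR-223-3p had 0. The list had 0 reads in C643 and 1 in Huh-7. Where the miR-142-3p reads in ES-2 came from was not tested.

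The 5 members together had 7250 reads in ES-2, 37001 in Huh-7 and 22410 in C643. These were 0.436% of all miRNA reads in ES-2 (95% CI 0.426 to 0.446), 1.70% in Huh-7 (1.685 to 1.72) and 0.274% in C643 (0.270 to 0.2775). The cluster was therefore most abundant in the liver line and least in the thyroid line. Shares in Huh-7 exceeded those in ES-2 3.91-fold (3.81 to 4.005) and C643 6.22-fold (6.11 to 6.32), while ES-2 exceeded C643 1.59-fold (1.55 to 1.63). On the deposited scale Huh-7 exceeded ES-2 2.07-fold and C643 3.97-fold, and ES-2 exceeded C643 1.92-fold. The scale thus changed the size of these differences and kept their direction.

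Among the 5p arms, miR-182-5p was the most abundant member in each line. It had 4176 reads in ES-2, 24243 in Huh-7 and 13772 in C643. Its share was 0.251% in ES-2 (95% CI 0.244 to 0.259), 1.12% in Huh-7 (1.10 to 1.13) and 0.168% in C643 (0.166 to 0.171). Among all mature miRNAs it ranked 35 in ES-2, 12 in Huh-7 and 52 in C643. The intervals of the 3 lines did not overlap. For comparison, miR-21-5p held 28.2%, 33.3% and 28.6% of reads in these libraries.

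miR-183-5p, from the first precursor of the transcript, came second in each line. It had 2935 reads in ES-2, 12210 in Huh-7 and 8349 in C643. The shares were 0.176% in ES-2 (95% CI 0.170 to 0.183), 0.562% in Huh-7 (0.552 to 0.572) and 0.102% in C643 (0.0999 to 0.104), at ranks 43, 27 and 71. The order of the lines was that of miR-182-5p, but the step from ES-2 to Huh-7 was smaller, with 3.183-fold (3.06 to 3.31) by share against 4.44-fold (4.30 to 4.59) for miR-182-5p.

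miR-96-5p, the member known for its role in hearing, was scarce. It had 97 reads in ES-2, 444 in Huh-7 and 248 in C643. Its share was 0.00583% in ES-2 (95% CI 0.00478 to 0.00711), 0.0204% in Huh-7 (0.0186 to 0.0224) and 0.00303% in C643 (0.00268 to 0.00343). Again Huh-7 was highest and C643 lowest, and the intervals did not overlap. By share, Huh-7 exceeded ES-2 3.50-fold (2.81 to 4.36), an interval that contains the value of miR-183-5p. The whole interval lies below the 4.44-fold of miR-182-5p, although it overlaps the interval of the latter.

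**Figure D2:**
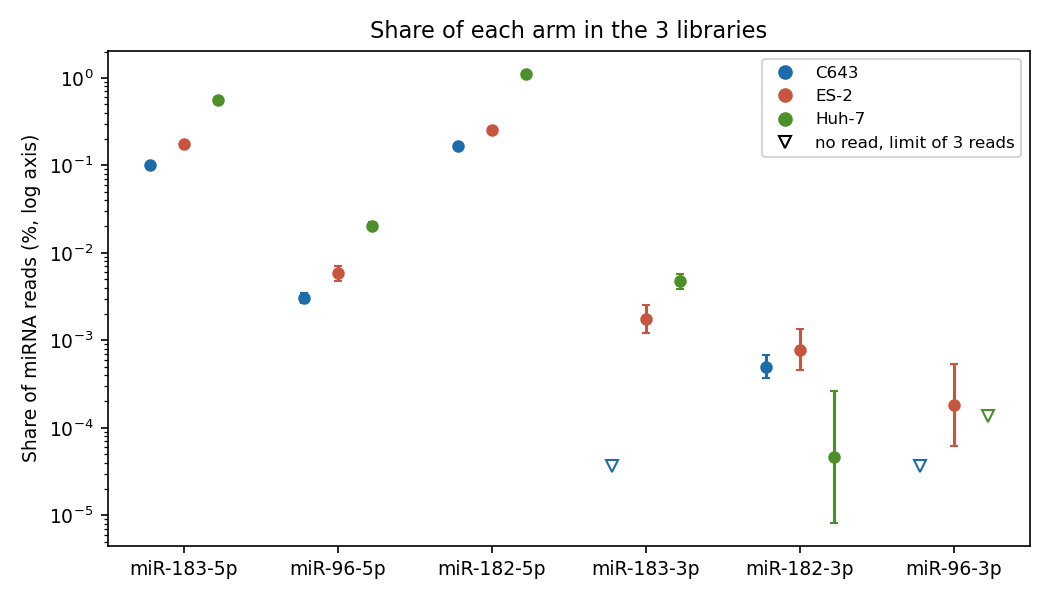
Share of miRNA reads (percent, log axis) of the 6 arms in each line; points are single libraries, bars are 95% Wilson intervals, and open triangles mark arms without a read at the limit of 3 reads. The 5p arms rise from C643 to ES-2 to Huh-7, from 0.102% to 0.562% for miR-183-5p, while miR-182-3p is lowest in Huh-7 with 1 read.

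The next question was whether members of 1 primary transcript kept their proportions across lines. A ratio of reads within a library is free of the library factor and of the denominator, and was given an exact Clopper-Pearson interval. How far reads of different members or arms follow their numbers of molecules was not tested. miR-182-5p exceeded miR-183-5p 1.42-fold in ES-2 (95% CI 1.36 to 1.49), 1.99-fold in Huh-7 (1.94 to 2.03) and 1.65-fold in C643 (1.605 to 1.695). This ratio was therefore highest in Huh-7 and lowest in ES-2. It was 1.395 times as high in Huh-7 as in ES-2 (1.325 to 1.47), 1.20 times as high in Huh-7 as in C643 (1.16 to 1.25) and 1.16 times as high in C643 as in ES-2 (1.10 to 1.22). Each of these 3 differences was larger than counting error.

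miR-96-5p fell far behind both neighbours. miR-183-5p, whose precursor lies only 135 bases away, exceeded it 30.3-fold in ES-2 (95% CI 24.7 to 37.4), 27.5-fold in Huh-7 (25.01 to 30.3) and 33.7-fold in C643 (29.7 to 38.35). miR-182-5p exceeded it 43.1-fold in ES-2 (35.2 to 53.2), 54.6-fold in Huh-7 (49.7 to 60.1) and 55.5-fold in C643 (49.0 to 63.2). Between lines these ratios moved by 1.29-fold at most. For miR-183-5p over miR-96-5p, C643 stood at 1.22 times Huh-7 (1.045 to 1.43) and at 1.11 times ES-2 (0.877 to 1.41), and ES-2 at 1.10 times Huh-7 (0.880 to 1.38), so the last 2 differences were not detectable at this depth. For miR-182-5p over miR-96-5p, C643 and Huh-7 could not be separated (1.02, 0.8695 to 1.19), whereas C643 stood at 1.29 times ES-2 (1.02 to 1.635) and Huh-7 at 1.27 times ES-2 (1.02 to 1.58). The last 2 intervals came close to 1. For the 5p members 9 such comparisons were computed, and their intervals were not adjusted for this number.

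**Figure D3:**
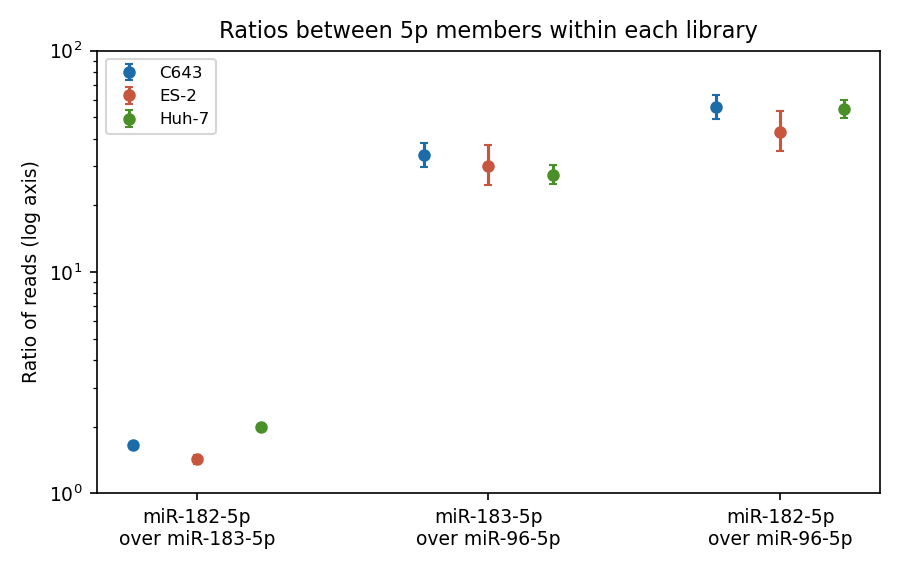
Ratio of reads between 5p members within each library (log axis); points are single libraries and bars are exact 95% intervals. miR-182-5p over miR-183-5p lies between 1.42 and 1.99 with separate intervals, whereas miR-96-5p is 27.5-fold to 55.5-fold below its neighbours in every library.

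As a part of all reads of the cluster, miR-182-5p made up 57.6% in ES-2, 65.5% in Huh-7 and 61.5% in C643. For miR-183-5p the values were 40.5%, 33.0% and 37.3%, and for miR-96-5p 1.34%, 1.20% and 1.11%. For miR-96-5p the intervals of ES-2 (95% CI 1.10 to 1.63), Huh-7 (1.09 to 1.32) and C643 (0.978 to 1.25) all overlapped.

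To place this inequality, the cluster was set beside other precursors that lie on the same strand with starts within 10 kb of each other. Each precursor was represented by its more abundant arm, at least 10 reads were required in 1 of the 2, precursors with fewer than 3 reads were set to 3, and only mature names with 1 locus were used. The absolute log2 ratio of MIR96 and MIR183 was 4.92 in ES-2, 4.78 in Huh-7 and 5.07 in C643. The median of all pairs was 3.61 over 116 pairs in ES-2, 2.58 over 139 in Huh-7 and 3.84 over 285 in C643. Of these pairs, 68.1%, 68.3% and 68.8% were less unequal than MIR96 and MIR183. MIR182 and MIR183, in contrast, were among the more equal pairs, with 11.2%, 15.8% and 7.02% of pairs below them. Where 1 arm had several loci, the precursor was represented by its other arm, which can be the minor one and makes such pairs more unequal. With every such precursor left out, an alternative added after the tables had been seen, the median was 2.90 over 84 pairs in ES-2, 2.44 over 104 in Huh-7 and 3.46 over 228 in C643. MIR96 and MIR183 then stood above 77.4%, 78.8% and 73.2% of these pairs, and MIR182 and MIR183 above 13.1%, 18.3% and 6.14%. When at least 100 reads were required, the part less unequal than MIR96 and MIR183 dropped to 54.4% in ES-2, 54.7% in Huh-7 and 39.9% in C643. In C643, 180 of the 285 pairs held a precursor at or below 3 reads and 147 lay on chromosome 14, and pairs that share a precursor are not independent.

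The ratios of the cluster changed less from line to line than those of most such pairs. Between its lowest and highest library, the ratio moved 1.22-fold for MIR183 and MIR96, 1.29-fold for MIR182 and MIR96 and 1.395-fold for MIR182 and MIR183. Over the 52 pairs that passed in all 3 libraries with both precursors above 3 reads, the median was 2.62-fold. Steadier ratios than these were found for 2, 5 and 9 of the 52 pairs, and for 2, 4 and 8 of 37 with the precursors of several loci left out, where the median was 2.31-fold. The comparison of pairs over lines was added after the tables had been seen and is a description, since the pairs overlap and share their libraries. Some of the other pairs held few reads, such as MIR181B2 with 4 in ES-2 and MIR497 with 6 in C643. The lowest precursor of the cluster, MIR96, had at least 97 in each library. Counting error widens the range of pairs with few reads, and its part in the difference from the cluster was not tested.

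**Figure D4:**
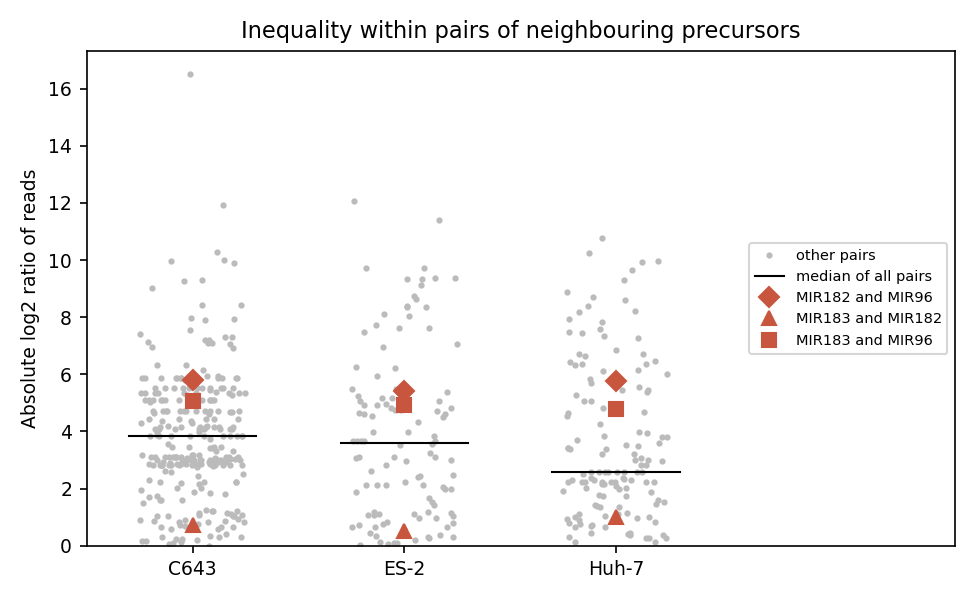
Absolute log2 ratio of reads within pairs of neighbouring precursors in each library; grey points are other pairs, the line is the median of all pairs (3.61 in ES-2, 2.58 in Huh-7 and 3.84 in C643), and coloured symbols are the 3 pairs of the cluster. MIR182 and MIR183 lie near the lower end, and both pairs with MIR96 lie above the median.

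The arms of each precursor were compared next. MIR182 and MIR96 are shown as hairpins with both mature arms in capitals, the 5p arm first, because the arms differ so widely in reads. In both hairpins 20 bases lie between the arms.
MIR182: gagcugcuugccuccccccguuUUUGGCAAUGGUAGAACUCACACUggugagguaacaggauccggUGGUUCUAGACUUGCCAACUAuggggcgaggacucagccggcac
MIR96: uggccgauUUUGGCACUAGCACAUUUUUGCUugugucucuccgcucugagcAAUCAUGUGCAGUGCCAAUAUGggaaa

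The 5p arm led in each precursor and each library. miR-182-3p had 13 reads in ES-2, 1 in Huh-7 and 41 in C643. It was therefore lowest in the line in which its 5p partner was highest. By share, ES-2 exceeded C643 1.56-fold, with an interval from 0.836 to 2.91 that includes no difference. C643 exceeded Huh-7 10.9-fold (1.498 to 79.2), from 41 reads against 1. The 3p arm made up 0.310% of both MIR182 arms in ES-2 (95% CI 0.1815 to 0.530), 0.00412% in Huh-7 (0.000728 to 0.0234) and 0.297% in C643 (0.219 to 0.402). At the ratio found in ES-2, 75.5 reads of miR-182-3p would have accompanied the 24243 reads of miR-182-5p in Huh-7, and at that of C643 72.2.

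miR-183-3p followed another order. ES-2 had 29 reads of it, Huh-7 had 103, and C643 listed it at 0. By share it was 2.72-fold higher in Huh-7 than in ES-2 (1.80 to 4.10), an interval that contains the 3.183-fold of its 5p partner. miR-183-5p exceeded it 101-fold in ES-2 (95% CI 70.3 to 151) and 119-fold in Huh-7 (97.7 to 145), and the interval of their ratio included 1 (1.17, 0.774 to 1.77). At these ratios, 82.5 or 70.4 reads would have been found beside the 8349 reads of miR-183-5p in C643. Of both MIR183 arms the 3p arm made up 0.978% in ES-2 (0.682 to 1.40), beside 0.837% in Huh-7 (0.690 to 1.01), whereas a count of 0 allows up to 0.0359% in C643. MIR183 thus lacked 3p reads in C643, whereas MIR182 nearly lacked them in Huh-7. miR-96-3p had 3 reads in ES-2, or 3% of both MIR96 arms (1.025 to 8.45), and was listed at 0 in the other lines. A count of 0 allows up to 1.21% in C643, which lies within this interval, and 0.676% in Huh-7, which lies below it.

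A listed 0 was not particular to miR-183-3p. Of 227 miRNAs with 20 or more reads in both ES-2 and Huh-7, 4 had none in C643, and miR-17-3p was one of them although miR-17-5p had 1874 reads there. Conversely, 15 of 254 had none in Huh-7, among them both arms of miR-361, with 2090 and 774 reads in C643 and 1196 and 720 in ES-2. Of precursors whose leading arm had 1000 or more reads, the other arm had no read in 4 of 40 in ES-2, 7 of 60 in Huh-7 and 11 of 71 in C643. It had at most 1 read, as for MIR182 in Huh-7, in 5 of 40, 8 of 60 and 12 of 71. The miR-17 and miR-361 arms were named after their values had been seen. Whether such zeros reflect the cells or the counting was not tested, so no fold is given against them. The upper limits given for a count of 0, and the reads set beside it, take the listed 0 as a true count. Where a named miRNA is called at 4-fold below from a listed 0, this is stated.

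Among all precursors with both arms listed and at least 10 reads on both together (counts under 3 set to 3), MIR182 and MIR183 were among those with the stronger 5p bias. A lower log2 ratio of 5p over 3p than that of MIR182 was found in 93.4% of 151 precursors in ES-2, 99.5% of 222 in Huh-7 and 92.7% of 233 in C643. For MIR183 these were 87.4% in ES-2, against 89.6% in Huh-7. In ES-2, the only line in which miR-96-3p had reads, MIR96 stood lower, above 76.8% of precursors. Elsewhere its place rested on a listed 0 set to 3 reads. It was then above 91.0% of precursors in Huh-7, and so not below MIR183 there, and above 86.3% in C643. With its own listed 0 treated in this way, MIR183 was above 98.7% in C643. The more abundant arm exceeded the other by a median of 13.8-fold in ES-2, 9.13-fold in Huh-7 and 11.7-fold in C643.

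**Figure D5:**
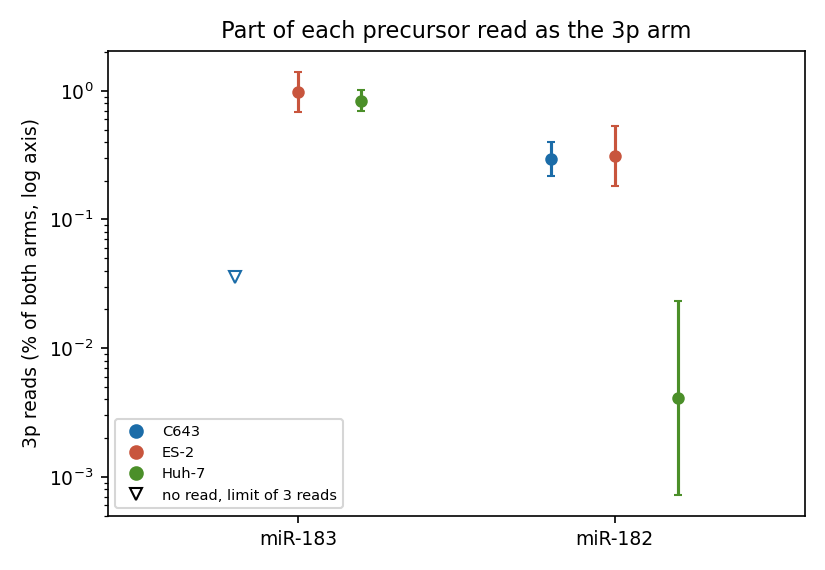
Reads of the 3p arm as percent of both arms (log axis) for miR-183 and miR-182 in each library; points are single libraries, bars are 95% Wilson intervals, and the open triangle marks miR-183-3p in C643 without a read at the limit of 3 reads. The low values are those of miR-183 in C643 and of miR-182 in Huh-7 (0.00412%).

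Levels in ES-2 and Huh-7, deposited in the same table, were compared as log2(value + 1), a scale that understates changes of low miRNAs. A difference of at least 2 counted as 4-fold, among miRNAs at 10 or more in 1 of the libraries. Of the 5 members 4 passed this filter, and miR-182-3p with values of 9.02 and 0.282 did not. Values were 2037 and 3438 for miR-183-5p in ES-2 and Huh-7, 2899 and 6826 for miR-182-5p, 67.3 and 125 for miR-96-5p and 20.1 and 29 for miR-183-3p. Huh-7 exceeded ES-2 by log2 differences of 0.75, 1.24, 0.88 and 0.51 in this order. None of the 4 was called at 4-fold, where 47.2% of all 390 miRNAs were (27.7% higher in Huh-7). The median of the 4 was 0.82 toward Huh-7, beside 0.54 over all 390, and 59% of all were higher in Huh-7 at any size. With each library scaled to its column sum, that is by share, miR-182-5p passed 4-fold, 1 of 4 members beside 55.9% of 422 miRNAs (40.8% higher in Huh-7), and 73.7% were higher in Huh-7 at any size. On this scale the median of the 4 was 1.73 toward Huh-7, beside 1.65 over all 422, so that their excess over all miRNAs was small. An exact binomial test on the reads of these 2 libraries (Benjamini-Hochberg adjusted, 0.05) called 3 of 4 members, all but miR-183-3p, beside 88.2% of all 390 miRNAs (53.8% higher in Huh-7), and compares the libraries, not the lines. Except for miR-182-5p by share, the members tested differed between ES-2 and Huh-7 by less than the 4-fold that many miRNAs passed.

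The C643 values come from another table, whose normalization may differ, and comparisons across tables are descriptions. The deposited values in C643 were 979 for miR-183-5p, 1614.5 for miR-182-5p and 29.1 for miR-96-5p. Against ES-2 these were lower by log2 differences of 1.06, 0.84 and 1.18, whereas the median of all 351 miRNAs was 0.07 higher in C643. Of 4 members, 1 was called at 4-fold, miR-183-3p with its listed 0, beside 26.2% of all (10.8% higher in ES-2). At any size 48.7% of miRNAs were higher in ES-2. By share it was again 1 of 4, the same member, beside 29.9% of 358 miRNAs (9.5% higher in ES-2). At any size 40.5% were higher in ES-2 by share. Against Huh-7 the differences were 1.81, 2.08 and 2.07 toward Huh-7, beside a median of 0.21 over 399 miRNAs. Here 3 of 4 members were called, miR-182-5p, miR-96-5p and miR-183-3p, beside 47.6% of all (25.1% higher in Huh-7). At any size 53.4% of miRNAs were higher in Huh-7. By share, 4 of 4 were called, beside 52% of 417 miRNAs (34.1% higher in Huh-7, and 66.4% at any size). The median by share was 2.72 toward Huh-7 beside 0.93 over all. Each call of miR-183-3p rested on its listed 0 in C643. It passed the filter only through the other library and could be called in no other direction.

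The targets reached through these seeds depend on all miRNAs that carry them. Of 2370 mature names in the reference, only miR-1271-5p shared bases 2 to 8 with a member, miR-96-5p. It had 4 reads in ES-2, 13 in Huh-7 and 6 in C643. Among names in the reference, miR-96-5p thus supplied 96.04%, 97.2% and 97.6% of the reads with this seed. Of the 2588 names with deposited values, 2281 matched the reference, and the seeds of the others were not searched. By bases 2 to 7, miR-182-5p, miR-96-5p and miR-1271-5p formed 1 group that held 0.257% of reads in ES-2, 1.136% in Huh-7 and 0.171% in C643, nearly all of it miR-182-5p. No other name in the reference shared bases 2 to 7 with miR-183-5p. Of the 3p arms, miR-182-3p shared bases 2 to 7 with miR-152-5p, which had 4 reads in ES-2, 4 in Huh-7 and 23 in C643, and thus more than miR-182-3p in Huh-7. miR-183-3p shared them with miR-4452 and miR-96-3p with miR-2681-3p, which had no reads in any library.

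Since the cluster is known from epithelial tumors and from sensory tissue, both kinds of miRNA were set beside it. The epithelial list held 8 miRNAs: the 5 of the miR-200 family, which maintain E-cadherin by repressing ZEB1 and ZEB2, and miR-203a-3p, miR-205-5p and miR-375. Their sum was 99 reads in ES-2, 9068 in Huh-7 and 108 in C643, or 0.00595%, 0.417% and 0.00132% of reads. The cluster had 7250, 37001 and 22410 reads in these libraries. In ES-2 and C643 it was therefore represented by far more reads than the whole epithelial list. Of 5 list members tested between ES-2 and Huh-7, 4 were called higher in Huh-7 and none higher in ES-2, beside 27.7% and 19.5% of all miRNAs. The median of the 5 was 7.02 on the log2 scale. The 4 called (miR-200a-3p, miR-200b-3p, miR-429 and miR-375) passed the filter through Huh-7 only, miR-200a-3p with a listed 0 in ES-2. They could be called in no other direction, so the count and the median are descriptions only. Among those not tested, miR-141-3p (4.86 in ES-2, 1.13 in Huh-7) and miR-203a-3p (4.17 and 0) were higher in ES-2, and miR-205-5p was 0 in both. miR-200b-3p, the largest of the list, had 13 reads in ES-2, 6558 in Huh-7 and 102 in C643.

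The list of sensory and neural miRNAs had 5 members. Of these, 3 were tested between ES-2 and Huh-7, with miR-9-5p called higher in ES-2 and miR-204-5p higher in Huh-7. Each of the called miRNAs passed the filter only through the library in which it was higher, miR-204-5p with a listed 0 in ES-2. miR-124-3p, the leading miRNA of neurons, had no read in any library. miR-9-5p had 359 reads in ES-2, 23 in Huh-7 and 1034 in C643. miR-204-5p was highest in Huh-7 with 141 reads, as the cluster was, and had 7 in C643 and a listed 0 in ES-2. For miR-7-5p the share was 0.438% in C643, followed by 0.297% in ES-2 and finally 0.200% in Huh-7, the reverse of the order of the 5p members of the cluster.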

How the data were processed

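Small RNA libraries of C643, ES-2 and Huh-7 (1 each) were made from TRIZOL-extracted total RNA (NEXTflex Small RNA kit) and read by Illumina sequencing. The submitters' processing notes name hg38, cutadapt 1.14, Bowtie2 2.3.3, SAMtools 1.5, featureCounts 1.5.3 and edgeR 3.18.1, without their order. How reads with several loci were counted, which miRNA annotation was used and whether random adapter bases served to remove duplicates are not given in the sources used here. The values deposited by the authors are a signal, reads per locus times a factor per library, named CPM (column sums of 959302, 1154552 and 612015). Reads were recovered by dividing by the smallest value of each column (whole within 0.001 for 100% of values). PCR copies may be among them.

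Members, lists and tests were chosen with earlier results of these data known. Named were the 5 members, miR-96-3p, miR-21-5p, the marker lists, seed relatives and the 5 nearest profiles among miRNAs with at least 100 reads in 1 library. Intervals are at 95%, and a count of 0 allows 3 reads, or 3.67e-05%, 0.00018% and 0.000138% of reads in C643, ES-2 and Huh-7. Positions come from GENCODE version 29, and the pairs of precursors from RefSeq genes. Of the 2588 names in the tables, 2281 matched the RefSeq miRNA table. Arm ratios against a listed 0 had been planned as lower bounds at 3 reads and were left out, since common miRNAs were listed at 0 as well. Only the places of MIR96 and MIR183 among all precursors use them. No test across replicates was possible. An exact binomial test on the reads of ES-2 and Huh-7 (Benjamini-Hochberg adjustment, 0.05), added after the data had been seen and checked on simulated reads, compares 2 libraries and not the lines. Alternatives were other denominators, pseudocounts, filters, fold thresholds and scalings, summed arms, and other distances and read minimums for pairs and arms. Python 3.11.15, scipy 1.17.1 and pandas 2.3.3 were used.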

Additional observations from a re-analysis of the deposited data

How the results depend on the processing

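No paired analysis was possible because there was no replicate in any line. The differences of the summed cluster and of the 4 members tested kept their direction under each alternative. Among the recomputed main values, 40 moved and 113 did not by more than counting error (counts: by more than 1.5 times). For C643, then ES-2, then Huh-7, the cluster held 0.263%, 0.503% and 1.04% when deposited values were taken as true CPM, 0.384%, 0.607% and 2.55% without miR-21-5p in the denominator, and 0.330%, 0.511% and 1.88% with 1 locus per mature miRNA. Ratios between members stayed within their intervals with both arms summed or with 0.5 reads or 1 unit added, as did arm ratios under the latter. The log2 difference of the summed cluster between ES-2 and Huh-7 was -1.05, and -1.97 scaled to the column sum, where the median of all miRNAs tested went from -0.54 to -1.65, and -0.90 with the median ratio set to 0. Scaled to the column sum it was -0.67 for C643 against ES-2 and -2.64 for C643 against Huh-7.

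For ES-2 against Huh-7, the 184 miRNAs called became 122 with a pseudocount of 10, 286 without a filter, 90 at a filter of 100 and 344 in the read test. The calls among members rose from 0 to 1 without a filter (miR-182-3p, higher in ES-2), to 1 at 2-fold and scaled to the column sum (miR-182-5p, higher in Huh-7), and to 3 in the read test. The split of all calls, 76 toward ES-2 and 108 toward Huh-7, became 64 and 172 scaled to the column sum, but 62 and 60 with a pseudocount of 10 and 48 and 42 at a filter of 100. For C643 against Huh-7, 90 and 100 became 75 and 142, 67 and 55, and 54 and 44. For C643 against ES-2, 54 and 38 became 22 and 24 with a pseudocount of 10, and the median of all miRNAs went from 0.07 to -0.04 at a filter of 100. For C643 against ES-2, 92 became 46 with a pseudocount of 10, 205 without a filter and 34 at 100. The count was 204 at 2-fold and 56 at 8-fold. The 1 member called, miR-183-3p from its listed 0, became 0 with a pseudocount of 10 or at 100 and 3 at 2-fold. For C643 against Huh-7, 190 became 122, 314 and 98 with a pseudocount of 10, without a filter and at 100. Here 3 members became 1 with a pseudocount of 10 (miR-182-5p) and at 8-fold (miR-183-3p, from its listed 0). With at least 100 reads, pairs less unequal than MIR96 and MIR183 made up 54.4% in ES-2, 54.7% in Huh-7 and 39.9% in C643, and without precursors of several loci 77.4%, 78.8% and 73.2%, while precursors with a lower 5p over 3p ratio than MIR182 in C643 made up 88.0% at 100 reads. Counts were small for the 3p arms (1 to 103 reads where any were found), which widens their intervals.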

Other observations

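Among 341 miRNAs outside the cluster with at least 100 reads in 1 library, those whose profile over the 3 libraries lay nearest to that of the summed cluster were miR-450a-5p, miR-331-3p, miR-455-5p, miR-125b-2-3p and miR-582-3p. The measure was the Euclidean distance between centred log2 shares (with 0.0001% added), which was 0.08, 0.10, 0.11, 0.13 and 0.15. miR-331-3p held 0.00679% in ES-2, 0.0262% in Huh-7 and 0.00453% in C643, and had 113, 569 and 371 reads. miR-450a-5p, encoded at 2 loci, had 79, 439 and 260 reads there. With 3 libraries, such likeness describes an order and a spacing of 3 values only.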
